A study of Rattus norvegicus with 3 samples.

Results

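Rab, VPS and coat genes encode the machinery that forms membrane vesicles, moves them and delivers them to the right compartment. They were chosen here by gene symbol: Rab or Vps or Snx followed by a number, Tbc1d, Sec followed by a number, and the subunits of the COPI coat. By that rule 142 of the 14740 genes with a peak in either list were members. Of these, 90 held 118 of the 9523 peaks of the Myocd-LSD1 list, and 126 held 247 of the 25521 peaks of the Control list. A further 62 of the 203 rat protein-coding RefSeq symbols of this form had no peak in either list, Rab5a, Vps35, Vps29, Sec23b, Sec62 and Snx1 among them.

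The peaks mark where HA-tagged TET2, an enzyme that oxidises methylated cytosine, was detected by CUT&Tag, in which a transposase guided by an antibody cuts the DNA around a bound protein. Both groups were rat aortic smooth muscle cells treated with an adenovirus carrying HA-TET2 for 24 h, with 500000 cells per assay and an antibody against the HA tag. The Myocd-LSD1 group is a cell line of that name and has 1 sample. The Control group is the line labelled WT and has 2 samples. How the Myocd-LSD1 line was made, and whether it is 1 clone, is not stated in the labels. Both groups carry overexpressed TET2, so the peaks describe an added protein and not the cells' own. Each group has 1 peak list here, which leaves the values without a spread between replicates and without a test between groups. Of the contractile smooth muscle genes looked up, Acta2, Tagln and Smtn had 0 Myocd-LSD1 peaks. In Control, Acta2 had 3 peaks, Tagln 1 and Smtn 2. Over all genes, 46.2% of the 13312 with a Control peak also had a Myocd-LSD1 peak, so absence from the Myocd-LSD1 list was common. Myh11, Cnn1 and Lmod1 had none in either list. A TET2 peak is no measure of expression, so the cell type label could not be checked from these files.

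A Rab GTPase is switched on at a membrane and recruits the motors, tethers and sorting factors that act there; proteins with a TBC domain switch Rabs off by speeding up GTP hydrolysis. VPS proteins form complexes that tether and sort cargo at endosomes, and sorting nexins bind endosomal lipids. The COPII coat buds vesicles from the endoplasmic reticulum and the COPI coat returns them from the Golgi. Smooth muscle cells use these routes to secrete matrix proteins and to recycle receptors and integrins.

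The 250 bases in front of the start site are shown for 4 members that stand for the 4 patterns described below. They come from RefSeq on the GRCr8 build and run 5′ to 3′ on the gene's strand, with CG dinucleotides, the sites TET2 acts on when they are methylated, in capitals. The peak coordinates given later are on rn6, and the start sites of the builds need not be the same. Copg1 had a promoter peak in the Myocd-LSD1 list alone. Rab1a had one in both lists. Rab43 had one in the Control list alone. Rab31 had no promoter peak but 7 Control peaks in its introns.
Copg1, chr4:121923712-121923961, + strand: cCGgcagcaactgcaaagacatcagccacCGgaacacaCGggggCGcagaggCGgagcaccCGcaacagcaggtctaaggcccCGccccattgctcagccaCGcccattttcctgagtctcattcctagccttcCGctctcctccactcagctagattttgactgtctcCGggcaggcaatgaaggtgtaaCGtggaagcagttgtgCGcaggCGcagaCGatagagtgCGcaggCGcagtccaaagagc
Rab1a, chr14:98623427-98623676, + strand: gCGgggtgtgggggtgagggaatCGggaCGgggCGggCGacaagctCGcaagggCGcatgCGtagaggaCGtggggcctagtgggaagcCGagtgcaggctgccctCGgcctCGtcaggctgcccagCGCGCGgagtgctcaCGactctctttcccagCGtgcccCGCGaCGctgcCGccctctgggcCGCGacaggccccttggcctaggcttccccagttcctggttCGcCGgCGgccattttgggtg
Rab43, chr4:121826512-121826761, - strand: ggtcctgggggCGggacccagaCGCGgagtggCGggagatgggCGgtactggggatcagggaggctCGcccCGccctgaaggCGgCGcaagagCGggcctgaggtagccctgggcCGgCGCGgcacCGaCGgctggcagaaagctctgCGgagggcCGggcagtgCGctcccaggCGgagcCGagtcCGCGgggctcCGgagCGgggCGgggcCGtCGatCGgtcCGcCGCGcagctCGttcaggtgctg
Rab31, chr9:112828093-112828342, - strand: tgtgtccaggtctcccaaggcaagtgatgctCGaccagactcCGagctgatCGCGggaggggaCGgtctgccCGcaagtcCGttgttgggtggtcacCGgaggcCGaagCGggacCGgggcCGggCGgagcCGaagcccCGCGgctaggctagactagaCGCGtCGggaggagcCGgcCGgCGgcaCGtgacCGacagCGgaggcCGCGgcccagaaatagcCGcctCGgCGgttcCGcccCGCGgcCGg
These stretches held 16 CG dinucleotides at Copg1, 26 at Rab1a, 32 at Rab43 and 34 at Rab31. They are examples, and the counts over all members are given further on.

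A larger share of trafficking gene peaks than of all peaks lay at promoters, which the authors' annotation sets at up to 3 kb from a start site. Promoter peaks made up 62.7% of the 118 member peaks in Myocd-LSD1 (95% interval 53.3 to 71.4%) and 37.2% of the 247 in Control (31.2 to 43.6%). Over all genes these shares were 44.4% in Myocd-LSD1 and 30.3% in Control. Intervals are exact (Clopper-Pearson) and reflect nothing but counting error. Distal intergenic peaks were the counterpart, at 12.7% of member peaks in Myocd-LSD1 and 15.8% in Control, against 26.8% and 26.9% of all peaks in those lists.

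Over all 14740 genes with a peak, 3014 had a promoter peak in both lists, 1053 in Myocd-LSD1 alone and 3932 in Control alone. Of the 142 members, 107 had a promoter peak in either list: 49 in both lists, 22 in Myocd-LSD1 alone and 36 in Control alone. Thus 57.6% of the 85 members with a promoter peak in Control were found again at the promoter in Myocd-LSD1 (46.4 to 68.3%), against 43.4% of all genes with a Control promoter peak. In the other direction, 69.0% of the 71 members marked at the promoter in Myocd-LSD1 were marked there in Control as well (56.9 to 79.5%), against 74.1% of all such genes. All genes' share lay below the members' interval in the first comparison and inside it in the second. The first was not kept under a stricter q-value limit of 0.01, where all genes' 41.5% lay inside the members' 40.8 to 64.2%, or with the Control list shortened to the Myocd-LSD1 length, where 61.5% lay inside 59.9 to 89.6%. The lists differ in depth: at the summit of the median member promoter peak, 5 fragments overlapped in Myocd-LSD1 and 7 in Control, and the background per position was 0.0633 fragments in Myocd-LSD1 and 0.175 in Control. The part of this difference in the absence of a peak was not tested.

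**Figure D1:**
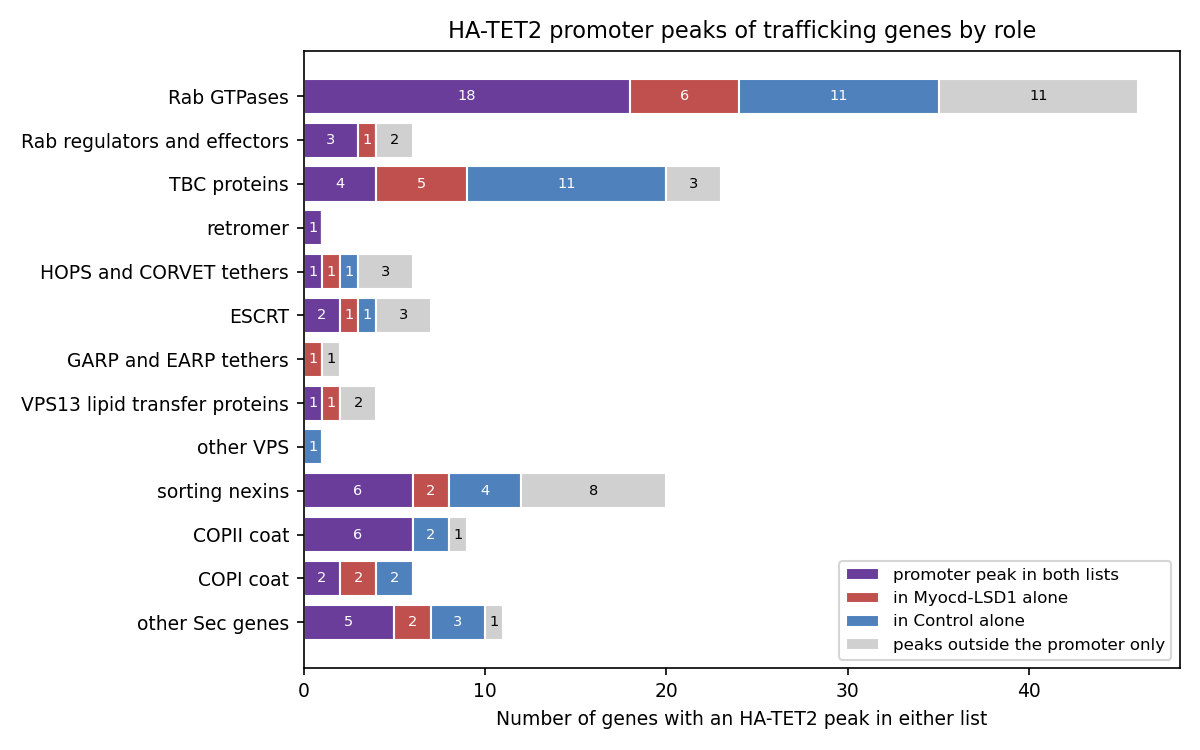
Number of trafficking genes in each role with a promoter peak in both lists, in Myocd-LSD1 alone, in Control alone or in neither. Each bar is 1 role and its length is the number of genes. The Rab GTPases are the largest role with 46 genes, and the TBC proteins have more promoters in Control alone, 11, than in both lists, 4. All genes have the same order, with 3932 promoters in Control alone and 3014 in both lists.

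Rab GTPases were the largest role with 46 genes. Promoter peaks were in both lists for 18 of them, in Myocd-LSD1 alone for 6 and in Control alone for 11. Among the 18 were Rab1a and Rab2a at the endoplasmic reticulum and Golgi, Rab5b and Rab5c at early endosomes, Rab11a and Rab11b at recycling endosomes, and Rab6a at the Golgi. The Rab2a peaks did not overlap, and the Myocd-LSD1 one had 2 fragments. The strongest was Rab8a, which directs vesicles to the plasma membrane and the primary cilium. Its promoter peak had a fold enrichment of 14.9 with 26 overlapping fragments in Myocd-LSD1 (rn6 chr16:19376931-19377260) and 12.1 with 23 fragments in Control (chr16:19376917-19377561). The 2 summits, the highest points of the peaks, lay 303 bases upstream of the start site in Myocd-LSD1 and 297 bases upstream in Control. Fold enrichment is the authors' value for each peak and is not comparable as a change between the lists.

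Rab40c, a Rab that joins a ubiquitin ligase, had 11.9-fold enrichment with 24 fragments in Myocd-LSD1 and 11.8-fold with 36 in Control. Rab22a, which acts in endosomal recycling, had 11.9-fold enrichment with 16 fragments in Myocd-LSD1 and 8.97-fold with 14 in Control. Rab33b, a Golgi Rab also used in autophagy, had 7.91-fold enrichment with 10 fragments in Myocd-LSD1 and 9.46-fold with 16 in Control. All 4 of these Rabs stood near the top of both lists, with mean percentile ranks by fold of 99.0 for Rab8a, 98.4 for Rab40c, 95.2 for Rab22a and 92.1 for Rab33b. Rab1a, the housekeeping Rab of transport to the Golgi, ranked at the 83.6 percentile by fold in Myocd-LSD1 and the 85.8 percentile in Control, with 6.86-fold enrichment and 9 fragments in Myocd-LSD1 (chr14:104474709-104475012) and 7.88-fold and 12 fragments in Control (chr14:104474689-104475294).

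Rabs with a Myocd-LSD1 promoter peak alone were Rab14, Rab27b, Rab29, Rab32, Rab3a and Rab3d. Rab14, which acts between Golgi and endosomes, was the strongest of these at 8.96-fold with 11 fragments (chr3:14394972-14395536), and it had no Control peak of any kind. Rab3d and Rab3a, Rabs of regulated secretion, followed with 5.74-fold and 5.72-fold enrichment, and Rab32 with 5.45-fold. Rabs with a Control promoter peak alone included Rab7a, the late endosome Rab, and Rab9a, which acts in return from endosomes to the Golgi. Rab43 was the strongest of all 36 members of that kind, at 10.4-fold with 19 fragments (chr4:119714340-119714804, 111 bases from the start site). Among Rab GTPases, Rab40b was next at 6.74-fold.

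**Figure D2:**
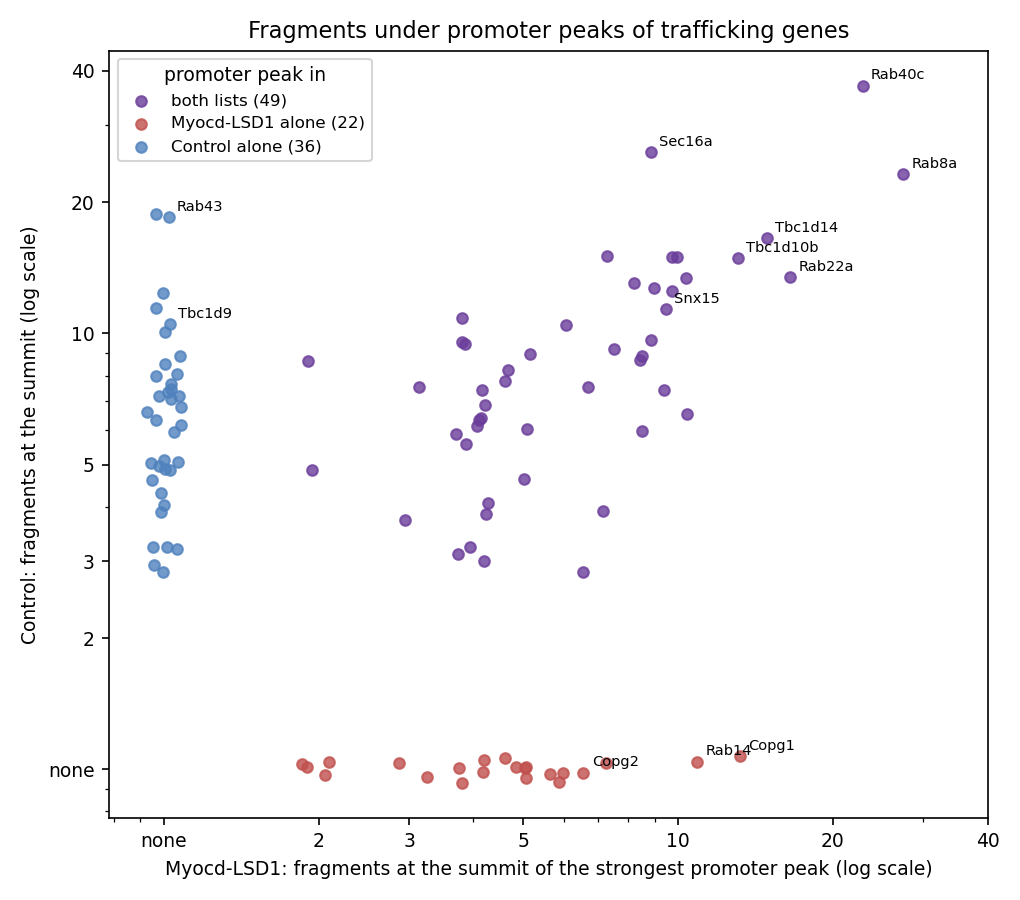
Overlapping fragments at the summit of each gene's strongest promoter peak on log scales, Myocd-LSD1 on the x axis and Control on the y axis, 1 point per gene with a small random offset. Genes without a promoter peak in a list are drawn at the position marked none. Rab8a had 26 fragments in Myocd-LSD1 and 23 in Control; Copg1 reached 13 fragments in Myocd-LSD1 alone, and Rab43 19 in Control alone.

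TBC proteins, the GTPase-activating proteins of Rabs, numbered 23, with promoter peaks in both lists for 4, in Myocd-LSD1 alone for 5 and in Control alone for 11. Of 15 marked at the promoter in Control, 4 were also marked in Myocd-LSD1, which is 26.7% (7.79 to 55.1%), against 62.1% of the 29 Rab GTPases (42.3 to 79.3%). All genes' share, 43.4%, lay inside the TBC interval and inside that of the Rab GTPases, the intervals of the 2 roles overlap, and their difference was not tested. The 4 were Tbc1d14, Tbc1d10b, Tbc1d8 and Tbc1d9b. Tbc1d14, a Rab11 partner that restrains autophagy, had 9.73-fold enrichment with 14 fragments in Myocd-LSD1 (chr14:79342995-79343414) and 11-fold with 17 in the overlapping Control peak. Tbc1d14 had another Control promoter peak at 11.6-fold that was met, and one more at 9.99-fold that was not. Tbc1d10b had 9.32-fold enrichment with 14 fragments in Myocd-LSD1 and 7.63-fold with 14 in Control.

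The 11 TBC promoters in Control alone included Tbc1d9 at 7.21-fold with 10 fragments, Tbc1d5 at 6.61-fold, Tbc1d25 at 6.29-fold and Tbc1d22b at 6.08-fold. Tbc1d5 is a Rab7 regulator that binds retromer, and Tbc1d25 acts in autophagy. The 5 in Myocd-LSD1 alone were Tbc1d4, a target of insulin signalling in glucose uptake, with Tbc1d12, Tbc1d15, Tbc1d23 and Tbc1d30. Tbc1d15, a Rab7 regulator, was the strongest of them at 5.90-fold with 6 fragments. Tbc1d4, Tbc1d12 and Tbc1d30 each had 2.81-fold enrichment with 2 fragments, and Tbc1d23 had 3 fragments, so these 4 calls rest on few fragments. The 6 other Rab regulators, the Rab11 effectors and the Rab3 GTPase-activating complex among them, were in both lists for 3 genes: Rab3gap1, Rab3gap2 and Rab11fip5.

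VPS genes were few in each complex. Vps26a, the only retromer subunit with a peak, had a promoter peak in both lists. In the HOPS and CORVET tethers of lysosomes and endosomes, Vps8 was in both lists, Vps39 in Myocd-LSD1 alone and Vps33b in Control alone, and 3 of the 6 had no promoter peak. The Myocd-LSD1 promoter peaks of Vps8 and Vps39 had 2.81-fold enrichment with 2 fragments each. In ESCRT, which sorts cargo into multivesicular bodies, Vps36 and the ATPase Vps4b were in both lists, Vps37a in Myocd-LSD1 alone and Vps37c in Control alone. Vps52 of the GARP tether had a Myocd-LSD1 promoter peak of 4.24-fold with 5 fragments; its 2 Control peaks lay in exons and had 19 and 17 fragments. Vps13a and Vps13b, bridges for lipid transfer, had promoter peaks in both lists and in Myocd-LSD1 alone, in that order. Vps72, a chromatin remodelling subunit despite its name, was in Control alone.

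Sorting nexins numbered 20, with promoter peaks in both lists for 6: Snx3, Snx4, Snx13, Snx14, Snx15 and Snx32. Snx15 had 8.43-fold enrichment with 10 fragments in Myocd-LSD1 and 8.09-fold with 11 in Control. Snx32 had 7.28-fold with 9 fragments in Myocd-LSD1 and 9.28-fold with 15 in Control. Their mean percentile ranks over both lists were 90.1 for Snx15 and 89.9 for Snx32. Snx11 and Snx33 were in Myocd-LSD1 alone, and Snx7, Snx12, Snx19 and Snx31 in Control alone, with Snx12 at 6.50-fold and Snx19 at 6.18-fold.

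COPII genes had the highest share among the roles with at least 8 Control promoters: 6 of 8, or 75% (34.9 to 96.8%). All genes' 43.4% lay inside this interval. None was in Myocd-LSD1 alone. The 6 span the coat from its scaffold Sec16a through the inner layer of Sec23a, Sec24a, Sec24c and Sec24d to the outer layer of Sec31a. Sec16a had 5.73-fold enrichment with 9 fragments in Myocd-LSD1 and 10.1-fold with 24 in Control. The others had 4 to 6 fragments in Myocd-LSD1 and 3 to 10 in Control, so most of these calls rest on few fragments. All 7 Myocd-LSD1 peaks of COPII genes were met, against 59.4% of all Myocd-LSD1 peaks, and 7 of their 17 Control peaks, against 22.0% of all Control peaks. Of the 7, 6 were at promoters, where 69.0% of all Myocd-LSD1 peaks were met. Of the 17, 8 were at promoters, where 37.8% of all Control peaks were met. These counts are small and no interval was computed for them.

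COPI split differently. Copa and Copb2 were in both lists, Copg1 and Copg2 in Myocd-LSD1 alone, and Copb1 and Copz1 in Control alone. Copg1 and Copg2 encode the alternative gamma subunits of the coat. Copg1 had the strongest promoter peak among the 22 members in Myocd-LSD1 alone, at 11.2-fold with 13 fragments and a summit 8 bases from the start site (chr4:119814956-119815207). Its only Control peak lay in exon 13 of 25, with 3.22-fold enrichment and 3 fragments. Copg2 had 6.47-fold enrichment with 7 fragments in Myocd-LSD1 and no Control peak. Among the other Sec genes, Sec11a and Sec11c of signal peptidase and Sec63 of the translocon were in both lists, with Sec14l1 and Sec22c. Of the translocon channel subunits, Sec61a2 and Sec61g were in Myocd-LSD1 alone and Sec61a1 in Control alone, and Sec61b had no peak. Their strongest promoter peaks had 4 fragments at Sec61a2, 4 at Sec61g and 5 at Sec61a1, so presence in 1 list alone rests on few fragments.

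Absence of a promoter call was checked against peaks assigned to neighbouring genes. Of the 22 promoters in Myocd-LSD1 alone, 1 had a Control peak within 1 kb of the start site under another name: Vps37a, whose peak met one assigned to Cnot7 at 7.76-fold with 11 fragments. Of the 36 in Control alone, 1 had such a Myocd-LSD1 peak: Tbc1d17, beside a peak assigned to Akt1s1 at 5.13-fold with 7 fragments. At these 2 promoters both lists thus had a peak within 1 kb of the start site. By overlap of the strongest promoter peak, 1 of the 22 and 0 of the 36 met a peak of the other list. Over all genes this held for 98 of 1053 in Myocd-LSD1 alone and 104 of 3932 in Control alone. Among the 49 in both lists, the peaks overlapped for 43. Gaps were 76 bases at Vps13a, 126 at Sec22c, 174 at Rab2a and 204 at Snx14, and 9254 bases at Vps8 and 14047 at Rab3gap2, where the peaks lay at different start sites. Counting the strongest Myocd-LSD1 promoter peak of each gene alone, 42 of the 49 overlapped a Control peak, against 2726 of 3014 over all genes.

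Promoter peaks in 1 list alone had lower median enrichment than those in both. Median fold enrichment in Myocd-LSD1 was 4.80 for the promoters in that list alone and 5.73 for those in both, with medians of 5 and 6 fragments. In Control the medians were 4.81 and 6.38, with 6.5 and 8 fragments. Over all genes the order was the same, with 4.31 and 5.74 in Myocd-LSD1 and 5.04 and 6.50 in Control. Peaks up to 1 kb from their start site centred on it: 34 of 71 summits were upstream in Myocd-LSD1 and 44 of 82 in Control, with a median distance of 145 bases in Myocd-LSD1 and 178 in Control. All genes were near this, with 1910 of 3774 summits upstream in Myocd-LSD1 and 2797 of 5966 in Control. Their median distances were 147 bases in Myocd-LSD1 and 189 in Control.

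**Figure D3:**
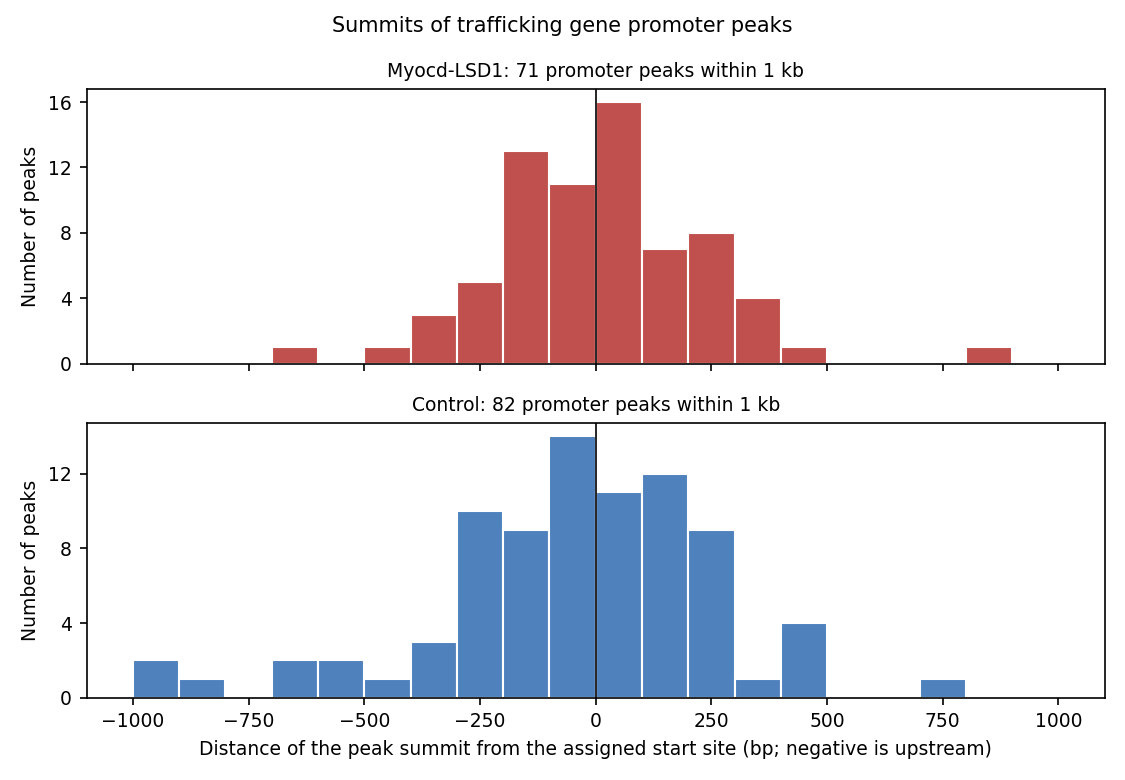
Position of peak summits relative to the annotated start site for member promoter peaks within 1 kb, Myocd-LSD1 and Control in separate panels, with the number of peaks per distance bin in bases. Both distributions centre near the start site, with medians of 8 bases in Myocd-LSD1 and -9.50 bases in Control, negative being upstream.

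Peak by peak, a peak was counted as met when it shared at least 1 base with a peak of the other list. In Myocd-LSD1, 70 of 118 member peaks were met, 59.3% (49.9 to 68.3%), against 59.4% of all peaks. In Control, 69 of 247 were met, 27.9% (22.4 to 34.0%), against 22.0% of all peaks. At promoters, 44 of 92 Control peaks were met, 47.8% (37.3 to 58.5%), against 37.8% of all promoter peaks, while outside promoters 25 of 155 were met, 16.1% (10.7 to 22.9%), against 15.2%. In Myocd-LSD1, 60.8% of 74 promoter peaks were met (48.8 to 72.0%), against 69.0% of all, and 56.8% of 44 others (41.0 to 71.7%), against 51.7%. All genes' share lay inside the members' interval in each of these 4 comparisons, and in the Control total the members' interval began just above it, though it held all genes' share in 4 of 5 alternative settings.

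Stronger Control promoter peaks were met more often, among members as among all genes. All Control peaks were divided into 5 bands of equal size by fold enrichment. In the highest band, 18 of 22 member promoter peaks were met, 81.8% (59.7 to 94.8%), against 66.9% of all. In the lowest band, 8 of 21 were met, 38.1% (18.1 to 61.6%), against 16.0%, and in the next, 2 of 14, or 14.3%, against 20.8%. The members' share was above that of all genes in 4 of the 5 bands, and all genes' value was inside the members' interval in the highest.

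**Figure D4:**
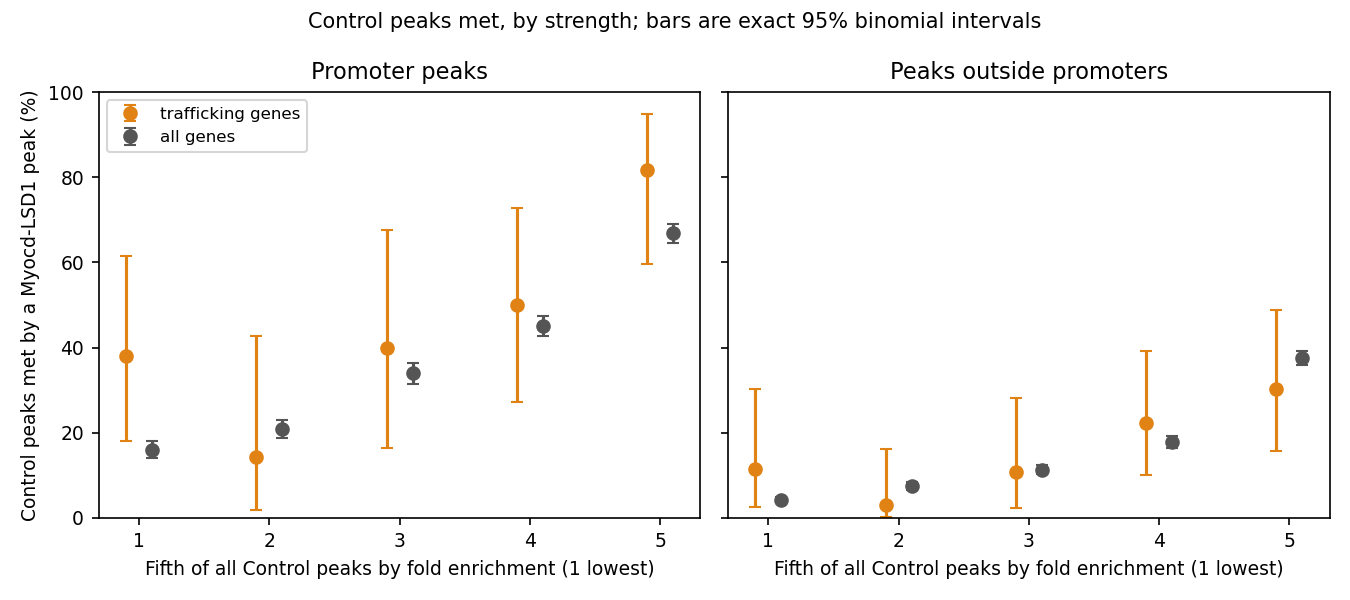
Share of Control peaks met by a Myocd-LSD1 peak in 5 bands of Control fold enrichment, promoter peaks in the left panel and other peaks in the right, for members and for all genes. Bars are exact 95% intervals, and at promoters the members' share was 81.8% in the highest band against 66.9% of all genes.

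Control peaks outside promoters included strong ones with no Myocd-LSD1 counterpart. Of 12 such peaks with more than 20 fragments, 3 were met, 25% (5.49 to 57.2%), against 48.2% of all peaks of that kind. The 48.2% lay inside this interval. Several of the 12 were assigned to the same genes, Rab35 and Vps37b, whereas the interval treats every peak as independent. Rab31, which acts between the Golgi and endosomes, had 7 Control peaks across introns 1 to 3, with 6 to 21 fragments, and none in Myocd-LSD1. The strongest, in intron 3 of 6, had 10.3-fold enrichment (chr9:113432193-113432575). Sec31a had 4 Control peaks in its own exons 6, 10, 20 and 26 of 29, none met, while its promoter peak was met. Exon peaks made up 14.6% of member peaks in Control (10.4 to 19.6%) and 2.54% in Myocd-LSD1, against 10.7% and 3.50% of all peaks. The 10.7% lay inside the members' interval. Of the 36 Control exon peaks of members, 4 were met, 11.1%, against 8.52% of all Control exon peaks.

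Several of the largest peaks assigned to a member lay in another gene. The annotation assigns each peak to the nearest start site, and 34 Control member peaks and 9 Myocd-LSD1 ones lay inside a neighbour. These were 13.8% of member peaks in Control and 7.63% in Myocd-LSD1, near the 14.3% and 9.18% of all peaks in those lists. Rab35, which acts in endocytic recycling, had 7 Control peaks and no promoter peak; the strongest, with 74 fragments at 12.6-fold, lay in intron 34 of 57 of Gcn1l1 and was met by a Myocd-LSD1 peak of 8 fragments at 5.77-fold. A 51-fragment Control peak assigned to Vps37b lay in exon 15 of 32 of Hip1r and was not met. A 40-fragment Control peak assigned to Vps33a lay in an intron of Clip1 and was not met. Vps8, with the most peaks of any member, had 3 in Myocd-LSD1 and 11 in Control, of which 1 pair overlapped, a distal one with 8 fragments in Myocd-LSD1 and 16 in Control. The peaks of Sec31a, Vps37b and Vps33a named here, and the values of Rab1a, Sec16a and Vps52 above, were chosen after their values were seen. So were the low fragment counts given above for Rab2a and for TBC, VPS, COPI and Sec61 genes.

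CG content of the promoter was read for the 118 of 142 members in the RefSeq table, as the 250 bases before and 50 after the start. Median counts of CG dinucleotides per 300 bases were 24.0 in the 42 members with promoter peaks in both lists, 20.5 in the 18 in Myocd-LSD1 alone, 19.0 in the 31 in Control alone and 21 in the 27 with no promoter peak. Symbols of the same form without any peak had a median of 19.0 (n = 50). Over all genes the medians were 23.0 in both lists, 22 in Myocd-LSD1 alone, 20 in Control alone and 5.50 with no promoter peak, the last group holding mostly genes without any peak. Members without a promoter peak had medians in the range of those with one, and this also held for symbols of the same form without any peak.

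**Figure D5:**
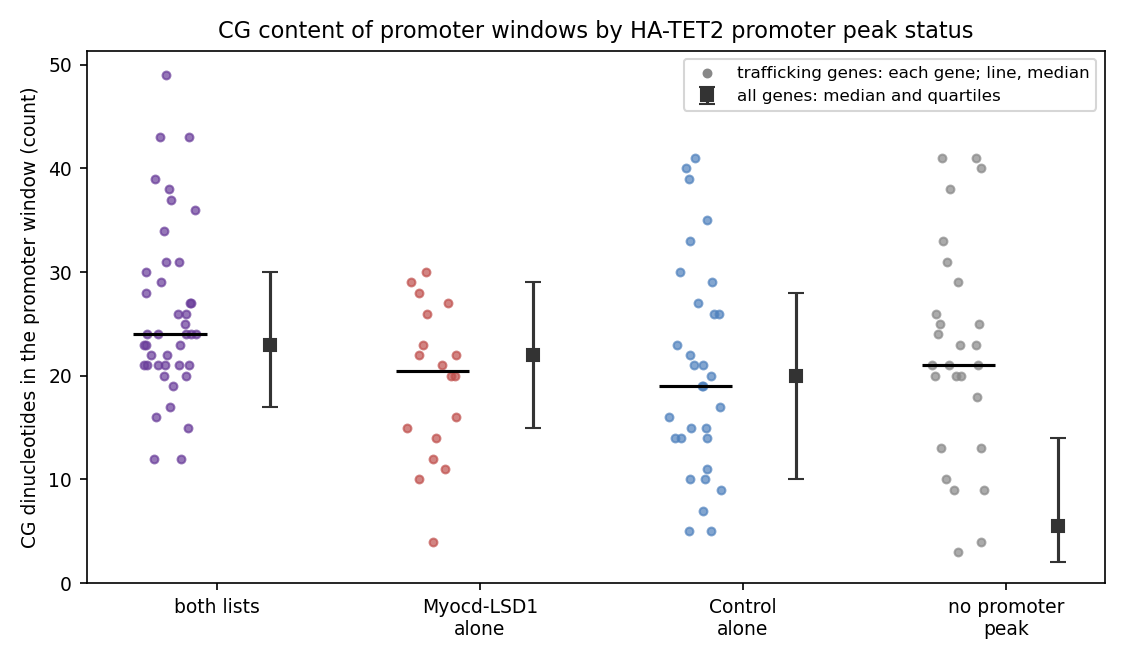
Number of CG dinucleotides in the 300-base RefSeq promoter window of each member, grouped by where its promoter peak was found, 1 point per gene with the median as a line. Medians were 24.0 in both lists, 20.5 in Myocd-LSD1 alone, 19.0 in Control alone and 21 with no promoter peak. Squares with bars give the median and quartiles over all genes.

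Of short motifs searched on both strands, the GC box GGGCGG was in 83.3% of member promoters in both lists, 66.7% in Myocd-LSD1 alone, 58.1% in Control alone and 77.8% without a promoter peak. Over all genes of the same status the shares were 71.4%, 66.1%, 58.9% and 28.6%, and 36.0% of all 27457 promoters held it. Members in 1 list alone were thus within 1 percentage point of all such genes. The E-box CACGTG was in 13.6% of the 118 members and 7.08% of all promoters, the ETS core CCGGAAG in 18.6% and 9.63%, the cAMP response motif TGACG in 38.1% and 23.0%, and the CCAAT box in 33.9% and 39.6%. Most of the 27457 promoters had no promoter peak, and beside genes of the same status the difference was smaller in places: in both lists the E-box was in 9.52% of members and 9.55% of all genes, and in Control alone the ETS core was in 16.1% and 15.7%. The GC box, E-box, ETS core and cAMP response motif all hold a CG, and the CCAAT box does not. A match is a stretch of letters and not a bound site.

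Other genes of the same pathways, listed outside the symbol pattern, gave shares on both sides of all genes' 43.4%. Clathrin and its adaptors had 8 of 10 Control promoters also in Myocd-LSD1, 80.0% (44.4 to 97.5%). The other Rab cycle genes had 11 of 16, 68.8% (41.3 to 89.0%), and the ARF and SAR GTPases with their regulators 6 of 9, 66.7%. ESCRT genes of other names had 4 of 7, 57.1%, and coat and exit site partners 5 of 10. SNAREs and tethers had the lowest, 7 of 18, 38.9% (17.3 to 64.3%). The strongest single case was Evi5l, a TBC protein under another name, with 14.7-fold enrichment and 22 fragments in Myocd-LSD1 and 19.4-fold and 44 fragments in Control.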

How the data were processed

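HA-TET2 CUT&Tag was analysed from 1 annotated peak list per group, Myocd-LSD1 (1 sample) and Control (2 samples). The submitters' processing notes name Bowtie2, MACS2, ChIPseeker and deepTools, with rn6 as the build; versions, settings, pooling of the Control samples and any input are not given in the sources read here. The deposited columns used are the authors' fold enrichment ratio, −log10 p- and q-values, score and summit position. Members, role lists and pathway lists were chosen with earlier results of these data known. Overlaps needed at least 1 shared base. The number of fragments at each summit was computed from the deposited fold and −log10 p-value. The formula was (fragments + 1)/(background + 1) with a Poisson tail, solved by searching every whole number. It was an assumption, and whether a unit is a read or a fragment is not stated. This step was chosen after the data were seen and was tested on simulated data. These were drawn from the same formula, so they tested the search and not the formula. Shares carry exact 95% Clopper-Pearson intervals (scipy 1.17.1, pandas 2.3.3, Python 3.11.15). Genes named with values were the 8 with the highest mean promoter rank in both lists, the 8 strongest in each list alone and the 6 with the most peaks; others are named by role. Alternatives tried were a q-value limit of 0.01, a 1 kb promoter, any assigned peak, 50% reciprocal overlap, a Control list shortened to the Myocd-LSD1 length, peaks in other genes left out and Sec61, Sec62, Sec63, Sec11, Sec14l and Vps72 genes left out. No rn6 sequence was used; promoter sequences are from RefSeq (GRCr8), read for CG dinucleotides and motifs.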

Additional observations from a re-analysis of the deposited data

How the results depend on the processing

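Shares of members kept within their interval under most alternatives, and the length of the Control list moved all 4. With Control shortened to the most significant 9523 peaks, 77.1% of member Control promoter genes also had a Myocd-LSD1 promoter peak (57.6% with the whole list; 61.5% of all genes), 38.0% of member Myocd-LSD1 promoter genes also had a Control one (69.0%; all genes 45.0%), 37.3% of member Myocd-LSD1 peaks were met (59.3%; all 39.1%) and 40.2% of member Control peaks were met (27.9%; all 38.7%). Counting any assigned peak gave 82.2% of member Myocd-LSD1 genes with a Control peak (all 81.2%). A 50% reciprocal overlap gave 38.1% of Myocd-LSD1 peaks (all 38.6%) and 18.2% of Control peaks (all 14.4%). Members stood above all genes in 5 of 5 alternatives for Control promoter genes and for Control peaks met, and in 1 of 5 for each of the other 2 results. All genes' share nevertheless lay inside the members' interval in 2 of the 5 for Control promoter genes, with the stricter q-value limit (41.5% in 40.8 to 64.2%) and the shortened list (61.5% in 59.9 to 89.6%). For Control peaks met it lay inside in 4 of the 5: with the stricter limit (21.6% in 20.4 to 32.3%), the shortened list (30.8 to 50.1%), reciprocal overlap (13.6 to 23.6%) and without peaks in other genes (23.7% in 23.5 to 36.2%). No paired analysis was possible because Myocd-LSD1 has 1 sample and each group has 1 peak list; for the same reason no replicate could be left out. The shallower Myocd-LSD1 list limits what its missing peaks can show.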
